A study of Mus musculus with 4 samples.

Results

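The genes described here encode the extracellular matrix of the liver and the stellate cells that make much of it. They were listed by symbol, 40 of the 23462 genes that the arrays name, and comprise 5 fibrillar collagens, 7 basement membrane and network collagens, 10 matrix glycoproteins and proteoglycans, 3 crosslinking enzymes, 6 proteinases and proteinase inhibitors, 3 receptors and ligands, and 6 stellate cell and contractile genes. RNA of whole livers from fasted male mice was hybridised to 4 whole-genome arrays, 1 per group. The groups were natural aging mice without drug treatment, aging diabetic mice without treatment, aging diabetic mice on metformin (a glucose-lowering biguanide), and aging diabetic mice on both metformin and astragalus polysaccharide (APS, a plant polysaccharide preparation). The 3 diabetic groups share the aging diabetic state, for which the labels give no means of induction, strain, age or dose. The sample titles carry 60 d, whose meaning is not stated, and nothing says whether a group's RNA was that of 1 mouse or pooled. There was no replicate, so no test was possible, and every difference below is between 2 arrays.

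Fibrillar collagens are secreted as procollagen, trimmed outside the cell and crosslinked through lysyl oxidases into fibres. Basement membrane and microfibrillar collagens, glycoproteins and proteoglycans surround and bind them, and metalloproteinases and their tissue inhibitors set how fast they are degraded. In the liver, hepatic stellate cells hold vitamin A in the space beside the sinusoid. When activated by platelet-derived growth factor and transforming growth factor beta they turn into contractile, collagen-secreting myofibroblasts, the main source of scar matrix in fibrosis.

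Levels are log2 of the processed signal relative to the array's 75th percentile, so 0 is that percentile and a step of 1 is a doubling. They serve to compare arrays for 1 gene and do not rank genes, since probes differ in brightness. Counts of higher and lower genes use a threshold of 2-fold, a log2 difference of 1. All 40 members matched a probe, and 35 had a probe free of outlier spots on every array. The exceptions were Col4a1, Col4a2, Col14a1, Timp3 and Lrat. Of the 35, 26 were well above background on all 4 arrays, 7 on some, and Thbs1 and Reln on none. Each array held 59305 spots, of which 33668 to 37402 were well above background, and the metformin array had the most. The median image-analysis error of a member's difference was between 0.165 and 0.172 log2 in the 6 comparisons; it covers the measurement of a spot and not the spread between animals.

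Col6a3, Col3a1, Col5a1 and Postn were the members with the widest range over the arrays among the 9 that were past 2-fold in at least 2 of the first 4 comparisons and had a RefSeq promoter entry. Their promoters are shown because of that range, and their 2-fold calls were not alike in every comparison. The windows run from 250 bases before to 50 bases after the annotated start, in GRCm38.p6: chr1:90843922-90844221 on the minus strand for Col6a3, chr1:45311288-45311587 on the plus strand for Col3a1, chr2:27886175-27886474 on the plus strand for Col5a1, and chr3:54359017-54359316 on the plus strand for Postn. Capitals mark matches, on either strand, to the SMAD box CAGAC, the GC box GGGCGG, the TATA box TATAAA and the CCAAT box CCAAT.
Col6a3: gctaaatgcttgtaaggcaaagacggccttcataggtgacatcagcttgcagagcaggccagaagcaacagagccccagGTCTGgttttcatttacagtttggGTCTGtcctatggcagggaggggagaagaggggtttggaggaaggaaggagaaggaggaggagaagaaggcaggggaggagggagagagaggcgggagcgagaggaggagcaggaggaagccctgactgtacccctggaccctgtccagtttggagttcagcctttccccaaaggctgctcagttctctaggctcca
Col3a1: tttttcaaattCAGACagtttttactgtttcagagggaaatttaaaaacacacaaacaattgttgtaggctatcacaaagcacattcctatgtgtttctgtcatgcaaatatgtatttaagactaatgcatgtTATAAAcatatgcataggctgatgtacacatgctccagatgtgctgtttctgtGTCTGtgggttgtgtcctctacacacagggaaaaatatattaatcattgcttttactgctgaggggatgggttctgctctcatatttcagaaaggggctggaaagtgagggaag
Col5a1: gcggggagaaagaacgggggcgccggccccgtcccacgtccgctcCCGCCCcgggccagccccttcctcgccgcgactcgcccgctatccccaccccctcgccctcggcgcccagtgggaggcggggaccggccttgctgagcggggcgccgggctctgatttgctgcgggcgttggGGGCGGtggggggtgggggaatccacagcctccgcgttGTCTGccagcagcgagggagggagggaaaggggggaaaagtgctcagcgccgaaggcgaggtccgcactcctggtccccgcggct
Postn: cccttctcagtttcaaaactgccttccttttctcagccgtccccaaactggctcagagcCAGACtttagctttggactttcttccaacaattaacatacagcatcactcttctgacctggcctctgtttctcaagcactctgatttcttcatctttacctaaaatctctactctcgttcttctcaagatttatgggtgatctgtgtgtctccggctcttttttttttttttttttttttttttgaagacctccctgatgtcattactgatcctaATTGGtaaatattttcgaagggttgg

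The windows of Col6a3, Col3a1, Col5a1 and Postn each held the SMAD box letters, and Col5a1 alone among them held GC boxes. Of the 40 members, 26 had a promoter window. The SMAD box was in 12 of these 26 (46.2%), against 49.7% of all 27025 windows. GGGCGG was in 15 (57.7%, against 35.9% of all windows), CCAAT in 10 (38.5%, against 37.9%) and TATAAA in 4 (15.4%, against 14.2%). The AP-1 letters TGANTCA were in 2 (7.69%, against 7.93%), in Mmp13 and Col6a1, and the CArG box in 0, against 1.57%. The windows of Col4a1 and Col4a2, which are transcribed away from each other, overlap by 78 bases and are not independent. Among members, Col3a1 also neighbours Col5a2, Col6a2 neighbours Col6a1, and Dcn neighbours Lum. A match describes letters only.

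As judged by their median, matrix genes were lower on the aging diabetic array than on the natural aging array, higher on the metformin array than on the aging diabetic array, and lower again on the combination array than on the metformin array. Of the 26 members detected everywhere, 18 had their highest level on the metformin array, 7 on the natural aging array, 1 on the combination array and 0 on the aging diabetic array. Among all 12689 genes detected everywhere, 23.5% were highest on the metformin array, 33.1% on natural aging, 21.6% on APS plus metformin and 21.8% on aging diabetic. The lowest level was on the aging diabetic array for 17 of the 26, against 20.4% of all genes. It was on the combination array for 5 (22.4% of all genes), on natural aging for 3 (23.7%) and on metformin for 1 (33.5%). A member's median range over the arrays was 1.58 log2, against 0.67 for all genes. Whole liver does not tell fewer matrix-producing cells apart from less matrix RNA per cell.

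**Figure D1:**
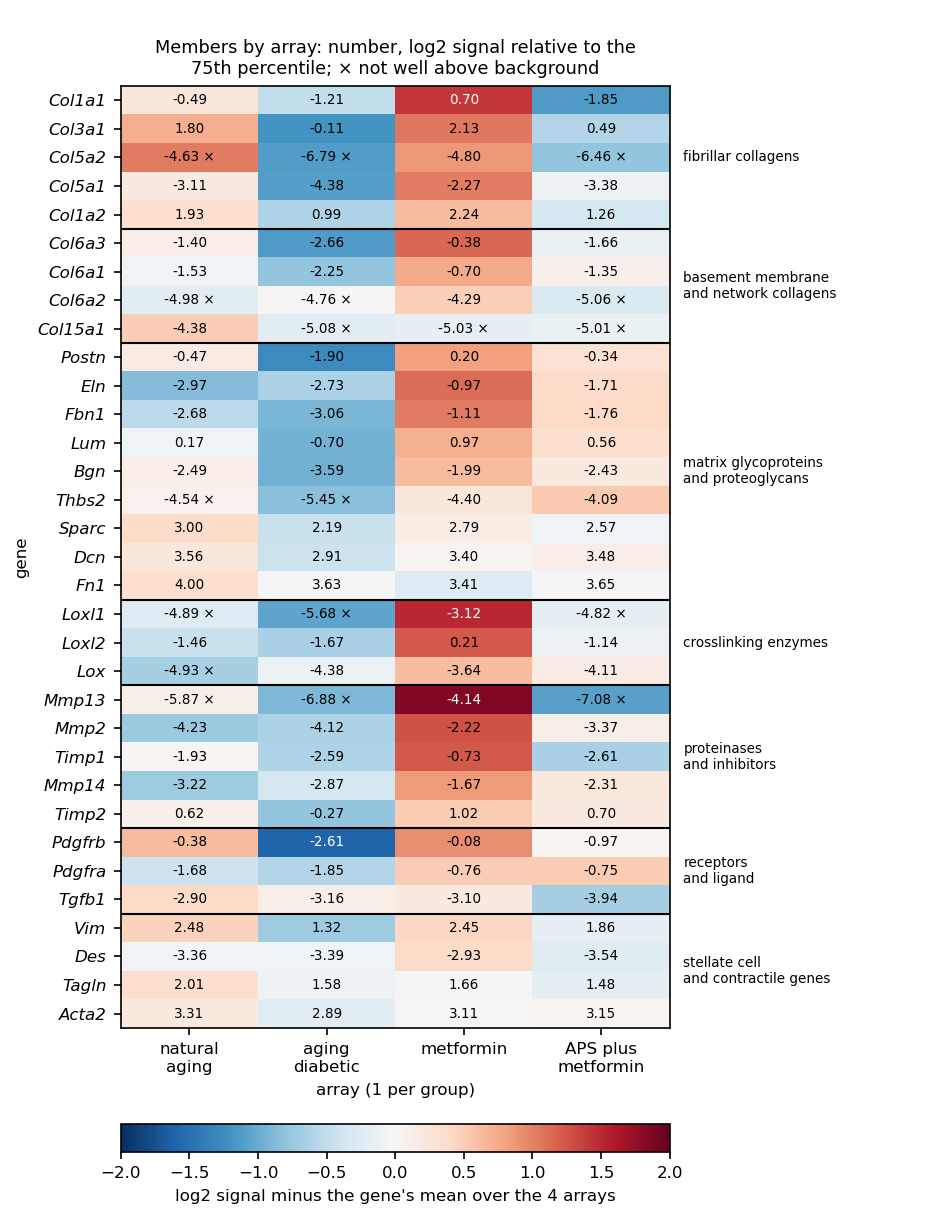
Level of each of the 33 members well above background on at least 1 array; numbers are log2 signal relative to the 75th percentile, colour is the deviation from the gene's mean over the 4 arrays, and a cross marks a signal not well above background. The aging diabetic column is mostly blue and the metformin column mostly red, while Acta2, Tagln and Des at the foot stay pale.

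In aging diabetic against natural aging, 7 of 28 members compared were at least 2-fold lower and 0 higher, with a median of -0.65; 12 were lower with outlier spots kept. Over all 14453 genes compared, 6.09% were lower and 8.2% higher, with a median of -0.04. In metformin against aging diabetic, 20 of 32 members were higher and 0 lower, with a median of 1.27; of all 15562 genes 11.9% were higher and 3.53% lower, with a median of 0.00. In APS plus metformin against aging diabetic, 8 of 28 were higher (4 after normexp background correction) and 0 lower, with a median of 0.59, beside 4.38% and 6.9% of all 14734 genes and a median of 0.02. APS plus metformin against metformin had 8 of 32 members lower and 0 higher and a median of -0.63, beside 12.4% and 2.37% of all 15599 genes and a median of -0.03. These comparisons share arrays: the aging diabetic array enters 3 of the 4 and the metformin array 2, so a low or high signal on such an array appears in each. The 8 members lower in the last comparison are 25.0% of those compared, nearer to the share of all genes than in the metformin comparison. Both counts include Loxl1, a bound detected on the metformin array only. Among members well above background on both arrays, 19 of 27 were higher with metformin than in aging diabetic (1340 of all 13640 genes). In the combination against metformin 7 of 28 were lower (1443 of all 13870).

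**Figure D2:**
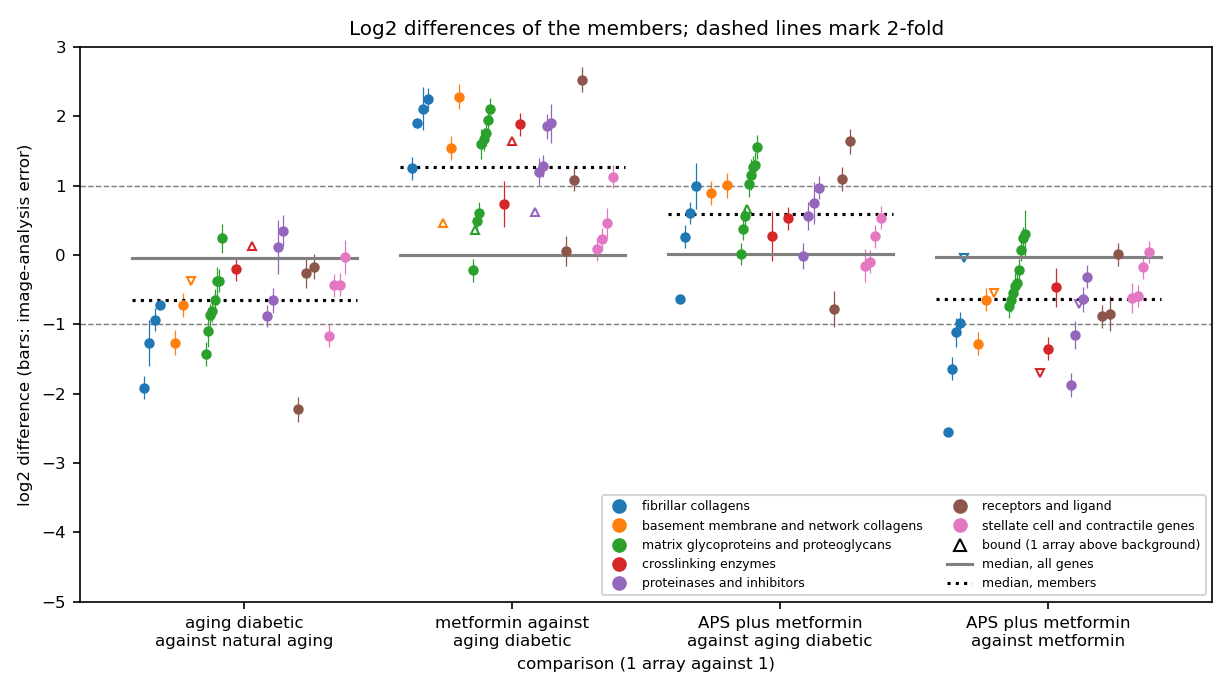
Log2 difference of each member in 4 comparisons of 1 array with 1, coloured by role; bars are the image-analysis error, open triangles are bounds where 1 array was not well above background, dashed lines mark 2-fold, and horizontal lines give the medians of the members (dotted) and of all genes (grey). Members lie mostly below 0 in the first and last comparison and above 0 in the middle comparisons, with medians of -0.65, 1.27, 0.59 and -0.63.

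Of the 5 fibrillar collagens, 4 were at least 2-fold higher with metformin than in aging diabetic, and 3 were lower with the combination than with metformin. Of all genes, 11.9% and 12.4% were. Col1a1, the alpha-1 chain of collagen I, is spotted 10 times, and the spots gave -0.49 ± 0.08 for natural aging, -1.21 ± 0.10 for aging diabetic, 0.70 ± 0.14 for metformin and -1.85 ± 0.10 for APS plus metformin (SD, n = 10 spots of 1 hybridisation). The spot values of the metformin array lay above the others, and the combination array was the lowest. Metformin was 3.76-fold above aging diabetic and 2.28-fold above natural aging, and the combination was 5.85-fold below metformin and 2.57-fold below natural aging. Col1a2, which supplies the other chain of collagen I, was at 1.93, 0.99, 2.24 and 1.26 in the same order of arrays. Metformin exceeded aging diabetic 2.38-fold, and the combination lay 1.98-fold below metformin, just short of the threshold. In the combination against aging diabetic the chains of collagen I went opposite ways, by -0.64 for Col1a1 and 0.27 for Col1a2, both short of 2-fold. A second Col1a1 probe, well above background on every array, read -0.46, -1.24, 0.52 and -2.03. It gave -0.79 log2 for the combination against aging diabetic, the same direction as the first. A dimmer Col1a1 probe read -3.32, -4.98 (not well above background), -0.96 and -4.48, so it does not show that direction.

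Col3a1, the only chain of collagen III, was at 1.80 on natural aging, -0.11 on aging diabetic, 2.13 on metformin and 0.49 on APS plus metformin. The natural aging and metformin arrays were close, and the diabetic array was lowest. It was 3.76-fold lower in aging diabetic than in natural aging (error 0.16 log2), 4.74-fold higher with metformin than in aging diabetic, and 3.12-fold lower with the combination than with metformin. The combination was also 2.47-fold below natural aging.
Col5a1, a chain of collagen V, which starts and limits the width of collagen I fibres, was dim, at -3.11, -4.38, -2.27 and -3.38. It was 2.41-fold lower in aging diabetic than in natural aging with an error of 0.33 log2, 4.32-fold higher with metformin, and 2.17-fold lower with the combination than with metformin. Its partner chain Col5a2 was well above background on the metformin array only, at -4.80, at least 1.03-fold above the combination, and gave no fold against the other arrays.

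Among network collagens, Col6a3 and Col6a1 encode chains of the beaded filaments of collagen VI. Col6a3 was at -1.40, -2.66, -0.38 and -1.66, lowest on the diabetic array and highest on the metformin array. It was 2.40-fold lower in aging diabetic than in natural aging, 4.86-fold higher with metformin and 2.01-fold higher with the combination than in aging diabetic, and 2.42-fold lower with the combination than with metformin. A dimmer probe for the same transcript gave -3.39, -3.97, -3.72 and -3.84, with the same signs in these 4 comparisons and no difference past 2-fold. In metformin against natural aging the probes disagreed, at 1.02 and -0.33 log2. Col6a1 was at -1.53, -2.25, -0.70 and -1.35, which put metformin 2.92-fold above aging diabetic. Col6a2 was detected on the metformin array only, at -4.29, at least 1.38-fold above aging diabetic. Col15a1, a collagen of the basement membrane zone, was detected on the natural aging array only, at -4.38.

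Col4a1 and Col4a2, the chains of the main basement membrane collagen, and Col14a1, which binds to collagen fibrils, each had an outlier spot on 1 array, and their values include it. Col4a1 was at 1.06 (the outlier spot) on natural aging, -0.25 on aging diabetic, 0.80 on metformin and 0.35 on APS plus metformin. Metformin was 2.07-fold above aging diabetic by spots without a flag. Col4a2 was at 0.04, -0.49, 0.84 (the outlier spot) and -0.22. Col14a1 was at -2.22 on natural aging, not well above background on aging diabetic, at -1.28 (the outlier spot) on metformin and at -3.27 on APS plus metformin. It was at least 5.58-fold lower in aging diabetic than in natural aging, and at least 2.69-fold higher with the combination than in aging diabetic.

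Matrix glycoproteins split, by the probes used, into those that varied and those that did not pass 2-fold anywhere. Postn, or periostin, a secreted protein that binds collagen and integrins, was at -0.47 on natural aging, -1.90 on aging diabetic, 0.20 on metformin and -0.34 on APS plus metformin. Aging diabetic stood apart from the other arrays: it was 2.69-fold below natural aging, 4.28-fold below metformin and 2.94-fold below the combination. Bgn (biglycan) and Lum (lumican), small leucine-rich proteoglycans of collagen fibrils, had the same low array. Bgn was at -2.49, -3.59, -1.99 and -2.43 and was 2.14-fold lower in aging diabetic than in natural aging. It was 3.04-fold higher with metformin and 2.24-fold higher with the combination than in aging diabetic. Lum was at 0.17, -0.70, 0.97 and 0.56, or 3.18-fold and 2.40-fold higher than aging diabetic with metformin and with the combination.

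Elastic fibre genes were high on both treated arrays. Eln, the elastin gene, was at -2.97 on natural aging, -2.73 on aging diabetic, -0.97 on metformin and -1.71 on APS plus metformin. Neither untreated array reached the treated ones, and metformin was 3.99-fold and the combination 2.40-fold above natural aging. Against aging diabetic these folds were 3.38 and 2.03. Fbn1, or fibrillin-1, which forms the microfibrils on which elastin is laid, was at -2.68, -3.06, -1.11 and -1.76. It was 3.87-fold higher with metformin and 2.47-fold higher with the combination than in aging diabetic. Among members detected everywhere, Eln, Mmp2 and Mmp14 were the only ones with natural aging as their lowest array, each within 2-fold of aging diabetic.

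Fn1 (fibronectin, which hepatocytes also secrete into plasma), Dcn (decorin) and Sparc (a collagen-binding glycoprotein) stayed within 2-fold in all 6 comparisons by the probes used. Fn1 was at 4.00, 3.63, 3.41 and 3.65, and was the only member detected everywhere that was lowest on the metformin array. A second Fn1 probe, for another transcript, gave 0.28, 0.21, 0.89 and 0.05, highest on metformin. Dcn was at 3.56, 2.91, 3.40 and 3.48, and Sparc at 2.996, 2.19, 2.79 and 2.57. Both had their lowest level on the diabetic array. Thbs2 was detected on the treated arrays only, at -4.40 with metformin and -4.09 with the combination. Thbs1, which activates latent transforming growth factor beta, was detected only through a probe with an outlier spot on the natural aging array. It read -0.35 (the outlier spot), -2.77, -1.87 and -3.40.

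By the probes used, genes of the lysyl oxidase family, which crosslinks collagen and elastin, read highest with metformin. By a second Loxl2 probe, natural aging was highest. Loxl2 was at -1.46, -1.67, 0.21 and -1.14. Metformin was 3.69-fold above aging diabetic, 3.20-fold above natural aging and 2.55-fold above the combination. A second Loxl2 probe disagreed: it gave 0.01, -1.19, -1.03 and -0.94 (an outlier spot on the combination array), with metformin 2.05-fold below natural aging. The direction of Loxl2 for metformin against natural aging therefore depends on the probe, and so does that for the combination against metformin. Loxl1 was detected on the metformin array only, at -3.12, at least 3.11-fold above aging diabetic and at least 3.26-fold above the combination. Its error in the first of these was 0.60 log2. Lox was not well above background on natural aging and was at -4.38, -3.64 and -4.11 on the others, within 2-fold among them.

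Genes of matrix turnover were higher with metformin than in aging diabetic on both sides of the balance. Timp1, the inducible tissue inhibitor of metalloproteinases, was at -1.93 on natural aging, -2.59 on aging diabetic, -0.73 on metformin and -2.61 on APS plus metformin. The combination and the aging diabetic arrays gave almost the same level. Metformin was 3.62-fold above aging diabetic, 2.30-fold above natural aging and 3.66-fold above the combination. Timp2 was at 0.62, -0.27, 1.02 and 0.70, with metformin 2.44-fold and the combination 1.96-fold above aging diabetic. Timp3, which binds to the matrix, carried an outlier spot on the metformin array and was at 2.78, 1.93, 2.31 (the outlier spot) and 2.59. Its metformin level lay below those of natural aging and the combination.

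Mmp2, or gelatinase A, which stellate cells release, was at -4.23, -4.12, -2.22 and -3.37. Both untreated arrays were low, and metformin was 3.73-fold above aging diabetic, 4.03-fold above natural aging and 2.22-fold above the combination. Mmp14, the membrane-bound activator of Mmp2, was at -3.22, -2.87, -1.67 and -2.31. Metformin was 2.30-fold above aging diabetic and 2.93-fold above natural aging. Mmp13, a mouse interstitial collagenase, was detected on the metformin array only, at -4.14, at least 1.53-fold above aging diabetic.

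The receptors of platelet-derived growth factor differed in pattern. Pdgfrb, the beta receptor that drives stellate cell growth, was at -0.38 on natural aging, -2.61 on aging diabetic, -0.08 on metformin and -0.97 on APS plus metformin. The aging diabetic array was alone at the low end. It was 4.68-fold below natural aging (error 0.18 log2), 5.76-fold below metformin and 3.12-fold below the combination. Pdgfra, the alpha receptor, was at -1.68, -1.85, -0.76 and -0.75, so by this probe the untreated arrays paired at a lower level and the treated arrays at a higher one. A dim probe for another transcript, not well above background on the untreated arrays, read -4.79 with metformin and -3.64 with the combination, a difference of 1.15 log2 between the treated arrays. By the first, brighter Pdgfra probe, metformin was 2.12-fold and the combination 2.14-fold above aging diabetic. Tgfb1, the main fibrogenic ligand, was at -2.90, -3.16, -3.10 and -3.94. It was within 2-fold in metformin against aging diabetic (0.06 log2), and the combination was 2.06-fold below natural aging (error 0.25 log2).

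Contractile genes of activated stellate cells and smooth muscle differed little by the probes used. Acta2, the smooth muscle actin that marks myofibroblasts, was at 3.31, 2.89, 3.11 and 3.15, a range of 0.43 log2. A dimmer Acta2 probe read -4.25, -3.85, -3.28 and -3.92, highest on metformin. In metformin against natural aging it gave 0.97 log2 and the brighter probe -0.20, both short of 2-fold. Tagln, an actin-binding protein, was at 2.01, 1.58, 1.66 and 1.48, and Des, the intermediate filament desmin, at -3.36, -3.39, -2.93 and -3.54. Vim, the intermediate filament of mesenchymal cells, was the exception at 2.48, 1.32, 2.45 and 1.86. It was 2.24-fold lower in aging diabetic than in natural aging and 2.19-fold higher with metformin than in aging diabetic.

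Reln and Lrat mark resting stellate cells; Lrat esterifies vitamin A for storage. Both were read through probes with outlier spots. Reln was at 0.90 on natural aging, -1.01 on aging diabetic, 0.90 (the outlier spot) on metformin and 0.38 on APS plus metformin. By spots without a flag it was 3.76-fold lower in aging diabetic than in natural aging and 2.62-fold higher with the combination than in aging diabetic. Lrat was at 0.18, -0.58, 0.97 and 0.01, with outlier spots on the aging diabetic and metformin arrays.

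Against natural aging, 9 of 33 members were at least 2-fold higher on the metformin array and 0 lower, with a median of 0.44, beside 13% and 4.71% of all 15548 genes. They were Col1a1, Col6a3, Fbn1, Eln, Loxl1 (a bound, detected on the metformin array only), Loxl2, Timp1, Mmp2 and Mmp14. Among members well above background on both arrays, 8 of 26 were higher, beside 1307 of all 13105 genes. Of 5 other probes of these genes well above background on both arrays, 3 had the same sign, and those of Col6a3 and Loxl2 the opposite one. On the combination array 1 of 29 was higher (Eln) and 3 lower (Col1a1, Col3a1 and Tgfb1), beside 6.14% and 6.68% of all 14634 genes. The median there was -0.16; after quantile normalization and in the authors' series table it was 0.01, so it has no settled direction.

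Genes that fold and trim collagen were mostly within 2-fold. In metformin against aging diabetic 4 of 13 were higher and 0 lower (11.9% and 3.53% of all genes), with a median of -0.12. Adamts2, Adamts14 and Pcolce, which act in cutting off the procollagen ends, were 3.72-fold, 3.37-fold and 2.89-fold higher. Adamts2 was 2.67-fold and Adamts14 2.37-fold lower in aging diabetic than in natural aging. P4ha1, a subunit of the prolyl hydroxylase that stabilises the triple helix, was 4.42-fold lower with the combination than in aging diabetic and 2.95-fold lower than with metformin.

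In the list of transforming growth factor beta signalling, 3 of 17 genes were lower and 0 higher in aging diabetic against natural aging. Of all genes 6.09% and 8.2% were. In metformin against aging diabetic 8 of the 17 were higher and 0 lower (11.9% and 3.53% of all genes). With the combination 4 were higher than in aging diabetic and 2 lower than with metformin; of all genes, 4.38% and 12.4% were, so the last count is near the share of all genes. Tgfb2, a ligand, was 3.24-fold higher with metformin than in aging diabetic and 3.06-fold lower with the combination than with metformin. The inhibitor Smad7 was 3.14-fold higher with the combination than in aging diabetic.

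The list of stellate cell ligands also holds receptors and other signalling genes, such as Ednra, Ptch1 and Gli1. It gave 1 higher and 3 lower of 14 in aging diabetic against natural aging. Of all genes, 8.2% were higher and 6.09% lower there, so the 1 higher gene is near the share of all genes. In metformin against aging diabetic 7 of 14 genes of this list were higher and 1 lower, beside 11.9% and 3.53% of all genes. Pdgfc, a ligand of the alpha receptor, was 3.70-fold lower in aging diabetic than in natural aging, 4.68-fold higher with metformin and 2.75-fold higher with the combination. Of matrix receptors, 5 of 13 were higher with metformin than in aging diabetic and 0 lower; Ddr1, a collagen-binding receptor kinase, was 6.64-fold higher and Itgb3, an integrin chain, 3.43-fold higher. Itgb3 was 3.98-fold higher with the combination.

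Laminins, nidogens and perlecan were higher with metformin than in aging diabetic for 6 of 11 and lower for 0, with Lamb1 at 3.53-fold. Of all genes, 11.9% were higher and 3.53% lower. Of other matrix proteins, 4 of 15 were lower in aging diabetic than in natural aging and 0 higher (6.09% and 8.2% of all genes). With metformin 8 of 16 were higher than in aging diabetic and 0 lower. Efemp1, a fibulin family protein, was 3.25-fold lower in aging diabetic, then 6.74-fold higher with metformin and 4.11-fold higher with the combination. Ogn (osteoglycin) was 3.50-fold and 3.72-fold higher with the same treatments. Col5a3, a further collagen V chain, was 3.74-fold higher with metformin than in aging diabetic and 6.37-fold lower with the combination than with metformin, as Col5a1 was to a smaller extent. Other proteinases gave 6 of 15 higher and 0 lower in metformin against aging diabetic. In the combination against metformin 6 of 15 were lower and 0 higher (12.4% and 2.37% of all genes). In the combination against aging diabetic 2 of 11 were lower and 0 higher (6.9% and 4.38% of all genes). Mmp7, or matrilysin, was 3.33-fold higher with metformin than in aging diabetic and 7.48-fold lower with the combination than with metformin. Unlike most members, it was 3.27-fold higher in aging diabetic than in natural aging and 2.25-fold lower with the combination than in aging diabetic.

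**Figure D3:**
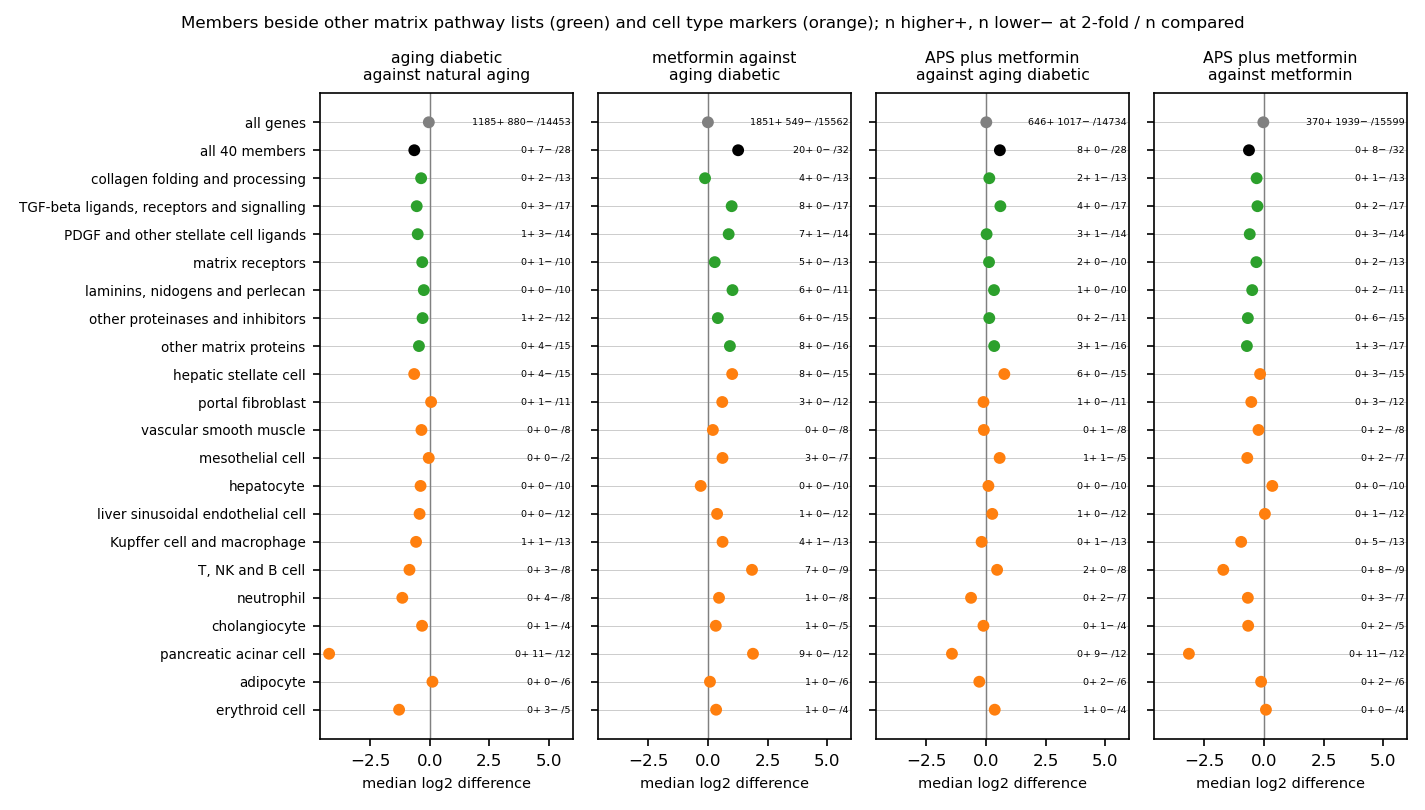
Median log2 difference of the members beside all genes (grey), other matrix pathway lists (green) and cell type marker lists (orange) in 4 comparisons, with the number at least 2-fold higher and lower of the number compared at the right of each row. Stellate cell markers lie near the members in the first 3 comparisons and nearer to 0 in the last, and pancreatic acinar markers far below 0 in the first and last comparison.

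Markers of several cell types moved with the members, and their part in the result was not tested. Leaving out members, 13 hepatic stellate cell markers were compared. Of these, 3 were lower and 0 higher in aging diabetic than in natural aging (median -0.66), 7 were higher and 0 lower with metformin than in aging diabetic (1.02), and 5 were higher and 0 lower with the combination (0.77). The shares of all genes in these directions were 6.09% and 8.2%, 11.9% and 3.53%, and 4.38% and 6.9%. In the combination against metformin 3 of the 13 markers were lower and 0 higher (12.4% and 2.37% of all genes). The median of these markers was -0.09 there, beside -0.63 for the members. Their summed scaled signal was 27.0 on natural aging, 16.4 on aging diabetic, 29.9 on metformin and 24.2 on APS plus metformin. Ngfr, a neurotrophin receptor of stellate cells, was 3.23-fold lower in aging diabetic than in natural aging and 6.02-fold higher with metformin. Lhx2, a transcription factor of stellate cells, was 4.09-fold higher with metformin and 3.66-fold higher with the combination than in aging diabetic.

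Portal fibroblast markers other than members were lower for 1 of 10 in aging diabetic than in natural aging (6.09% of all genes) and higher for 2 of 11 with metformin than in aging diabetic (11.9% of all genes). With the combination 3 of 11 were lower than with metformin (12.4% of all genes), and 5 of 11 were higher with metformin than in natural aging (13% of all genes). Thy1, which marks these cells and also T cells, was 3.93-fold higher with metformin than in aging diabetic. Of 8 vascular smooth muscle markers, Acta2 and Tagln included, 0 were past 2-fold in aging diabetic against natural aging. Of all genes, 8.2% were higher and 6.09% lower there. The count was also 0 of 8 in metformin against aging diabetic, beside 11.9% of all genes higher and 3.53% lower. For a list of 8 genes, a count of 0 is near these shares. Against natural aging, 1 of 8 was higher with metformin and 0 lower (13% and 4.71% of all genes). With the combination 1 of 8 was lower than in aging diabetic (Cnn1, a calponin, 2.94-fold) and 2 of 8 lower than with metformin (Synpo2 2.65-fold and Cnn1 2.11-fold). Of all genes, 6.9% and 12.4% were. Without Acta2 and Tagln, the median of the combination against metformin was -0.63 over 6 smooth muscle markers, beside -0.63 for the members. The summed scaled signal of the smooth muscle list, over the 10 genes with a usable probe, was between 15.8 and 20.4.

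Blood cell and pancreatic markers also differed between arrays, and their part was likewise not tested. Of all genes, 6.09% were lower in aging diabetic than in natural aging. With metformin 11.9% were higher and 3.53% lower than in aging diabetic, and with the combination 12.4% were lower and 2.37% higher than with metformin. Of T, NK and B cell markers, 3 of 8 were lower in aging diabetic than in natural aging, 7 of 9 higher with metformin than in aging diabetic, and 8 of 9 lower with the combination than with metformin. Their summed scaled signal was 2.55, 1.42, 5.41 and 1.95 in the order of arrays, highest on the metformin array as for most members. Pancreatic acinar markers, genes of the exocrine pancreas, were lower for 11 of 12 in aging diabetic than in natural aging, higher for 9 of 12 with metformin than in aging diabetic, and lower for 11 of 12 with the combination than with metformin. Their summed scaled signal was 83.5, 11.1, 20.8 and 5.53, so natural aging was the highest array and metformin lay below it, unlike most members. Of Kupffer cell and macrophage markers, 4 of 13 were higher and 1 lower with metformin than in aging diabetic, and 5 of 13 were lower and 0 higher with the combination than with metformin. Cx3cr1, a chemokine receptor of monocytes and macrophages, was 12.3-fold and Ccr2, another, 6.32-fold higher with metformin than in aging diabetic. In aging diabetic against natural aging, neutrophil markers were lower for 4 of 8 (median -1.16), erythroid markers for 3 of 5 (-1.29) and sinusoidal endothelial markers for 0 of 12, although 12 of 12 were below 0 (-0.43). Hepatocyte markers, 10 of 10 detected on every array, were past 2-fold in none of the first 4 comparisons. Their median in these comparisons was -0.39, -0.30, 0.10 and 0.35, in the order used for the members' counts.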

How the data were processed

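Whole liver RNA was measured on 4 one-colour arrays, 1 per group, all of 1 slide and 1 scan, per the file headers. The deposited files hold red-channel (Cy5) spot intensity after background subtraction by Agilent Feature Extraction (version 11.5.1.1 per the file headers, 10.7 per the submitters' processing notes), its error, and flags of 0 or 1 for detection, saturation and outlier spots. No spot was saturated. The deposited series table holds the authors' log2 values, with equal medians of 7.84 on every array, from a normalization not given in the sources used here.

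Signals were put on a log2 scale and set relative to the 75th percentile of their array (2699.5 to 3588.98), with Python 3.11.15, numpy 2.4.6 and pandas 2.3.3. Outlier spots were removed, which kept 51780 of 56605 probes. Transcript accessions were matched, without version, to RefSeq genes of GRCm38.p6; 33767 probes matched 23462 symbols, and 22047 of these had a usable probe. The probe with the highest mean signal stood for a gene. Comparisons took genes well above background on at least 1 of the 2 arrays. Where only 1 was, the difference is a bound ("at least") set by the dim signal or the lowest detected signal on that array, whichever was higher (log2 -4.52, -4.75, -4.95 and -4.84 in the order natural aging, aging diabetic, metformin, APS plus metformin). With 1 array per group no test was run, and errors combine the image-analysis errors of both spots; the number of arrays limits the precision.

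The members and lists were chosen with earlier results of these data known. All members are named; of each other list, those named are among the 3 with the largest difference in a comparison among genes detected on both arrays. Promoters were taken from RefSeq for members past 2-fold in at least 2 of the first 4 comparisons, the 4 with the widest range. Some genes that this rule names are not reported here. Members whose probes all carry an outlier spot are given with it. The procedure was tested on simulated data. The 7 other settings tried included quantile and cyclic loess normalization (R 4.3.3, limma 3.58.1) and normexp with an offset of 50, which used the median spot signal and median background because the mean signal is not among the columns used here.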

Additional observations from a re-analysis of the deposited data

How the results depend on the processing

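Of 144 counts and medians recomputed under 7 other settings and 1 chosen after seeing the data (outlier spots left out by comparison), 2 turned their direction and 8 others moved beyond the set tolerance. Among the rest, leaving outlier spots out by comparison gave 10 members rather than 7 lower in aging diabetic against natural aging, and cyclic loess brought the median of APS plus metformin against natural aging from -0.16 to -0.03. With outlier spots kept, 12 members rather than 7 were lower in aging diabetic against natural aging, 2 rather than 0 were lower in metformin against natural aging (1 when outlier spots were left out by comparison), and 5 rather than 3 were lower in APS plus metformin against natural aging. Normexp lowered the members higher in APS plus metformin against aging diabetic from 8 to 4 and those higher against natural aging from 1 to 0; averaging probes gave 2 of the latter. Without bounds, the median of metformin against aging diabetic was 1.55. The median of APS plus metformin against natural aging turned from -0.16 to 0.01 (0.00901 after quantile normalization, 0.0118 in the authors' table). Loxl2 turned from -1.35 to 0.084 in APS plus metformin against metformin with outlier spots kept, and from 1.68 to -1.03 in metformin against natural aging with outlier spots kept or left out by comparison, since another probe then stands for it. Of 56 called member differences, 14 fell under 2-fold with normexp, 4 with averaged probes, and at most 2 under any other alternative. Cyclic loess moved the median of all genes to -0.15 in APS plus metformin against metformin and to 0.11 in metformin against natural aging; relative to it the members' medians were -0.56 and 0.44. No paired analysis was possible because each group has 1 array. The causes of these changes, other than the exchanged Loxl2 probe and the bounds left out, were not tested. Members near the lowest detected signal, such as Col5a2, Col6a2, Col15a1 and Mmp13, give bounds only.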
